A study of Mus musculus with 20 samples.

Results

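Knockdown of Tet2 was examined in untreated M3 cells, a mesenchymal mouse mammary tumour line, by RNA sequencing of total RNA. The comparison consists of 4 libraries, 2 from M3 cells carrying an shRNA against Tet2 (shTet2) and 2 from M3 cells carrying a control shRNA (shControl), out of 20 libraries in the series. They were chosen by their labels, and none of their values entered the choice. M3 is 1 clone with stable mesenchymal traits, known to derive from Py2T, an epithelial line from a mammary tumour of an MMTV-PyMT mouse, in which the mammary tumour virus promoter drives polyoma middle T antigen. Every result therefore describes 1 clone, and both groups carry an shRNA and have the same MMTV-PyMT origin. The labels name the hairpin by its target, and its sequence and the number of hairpins per target are not given in the sources used here. A further 4 libraries hold the same shRNAs in M3 cells treated with 2 µM of CI994, which inhibits class I histone deacetylases, for 72 h. They are shTet2 with CI994 and shControl with CI994, and they share no library with the untreated comparison. An shMbd3 group without CI994 is set beside a few values and shares the shControl libraries.

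Tet2 is a dioxygenase that oxidises 5-methylcytosine to 5-hydroxymethylcytosine and further products, a route by which DNA methylation is removed, and Tet1 and Tet3 are its relatives. In an epithelial-mesenchymal transition, cells give up tight junctions, desmosomes and apical-basal polarity and take up a motile form with a vimentin cytoskeleton. Zeb, Snail and Twist transcription factors repress epithelial genes during that change, and Grhl2, Ovol and Esrp proteins act on the epithelial side. The series title names plasticity between these states as its subject. In shControl, Vim measured 1461 and 1525 CPM and the epithelial cadherin Cdh1 16.3 and 25.7 CPM. The epithelial keratin Krt18 was not low there, at 581 and 1373 CPM. No epithelial line was compared here, so these levels do not test the mesenchymal label of M3.

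The authors deposited CPM values, read counts scaled to the total of each library, for 24454 genes in 12 M3 shRNA libraries. Dividing each library by its smallest positive value gave whole numbers for all genes, so that reads could be recovered. The depth was 21174606 and 20077243 reads in shTet2 and 21851602 and 20869867 reads in shControl. Across the 12 libraries 3 reads corresponded to 0.120 to 0.186 CPM, the level that a count of 0 allows, and this floor covers counting error only. A gene was tested if it reached 0.5 CPM in 2 or more of the 12 libraries, which 12808 genes did. Differences were tested with limma on log2(CPM / TMM factor + 0.5) in 1 fit over the 12 libraries, with p adjusted by Benjamini-Hochberg over all tested genes, and a gene is said to have risen or fallen where its adjusted p was under 0.05. Log2 changes are shTet2 minus shControl on that scale, which compresses changes near 0 CPM, and errors after ± are standard errors of the fit with 2 libraries a group. The libraries came from 2 independent experiments according to the extraction protocol, and the replicates of both groups differed by more than sampling noise.

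One control library stood apart, and calls were compared with and without it. The library labelled shControl replicate 1 had far less Mbd3 than shControl replicate 2, the 2 libraries measuring 5.40 and 66.5 CPM, although Mbd3 is not a target of the control shRNA. The shMbd3 libraries measured 22.1 and 27.7 CPM, so the Mbd3 level of the library labelled shControl replicate 1 lay below both. On Vim and Cdh1, given above, that library lay nearer to shControl replicate 2 than to shMbd3. Vim measured 1461 CPM in it, 1525 CPM in shControl replicate 2, and 396 and 409 CPM in shMbd3. Cdh1 measured 16.3 CPM in it, 25.7 CPM in shControl replicate 2, and 170 and 202 CPM in shMbd3. The 2 controls also differed from each other by the GC content of genes. The shTet2 replicates differed by a median log2 of 0.11 in the decile of genes with the lowest GC content and -0.15 in the decile with the highest. The shControl replicates differed by 0.67 and -1.10 in the same deciles. Mbd3, with a GC content of 61.5%, lies in the decile with the highest. Whether its low value belongs to that trend was not tested. With both controls the median shTet2 change ran from -0.28 to 0.45 over the GC deciles, and without the library labelled shControl replicate 1 it ran from 0.03 to -0.11. Without shControl replicate 2 it ran from -0.63 to 0.998, and counts of calls in that setting are to be read beside that trend. Counts of calls with the GC trend removed stand in the closing section. Values without that library rest on 1 untreated control assumed to vary like the other groups, and are given where they bear on a call.

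**Figure D1:**
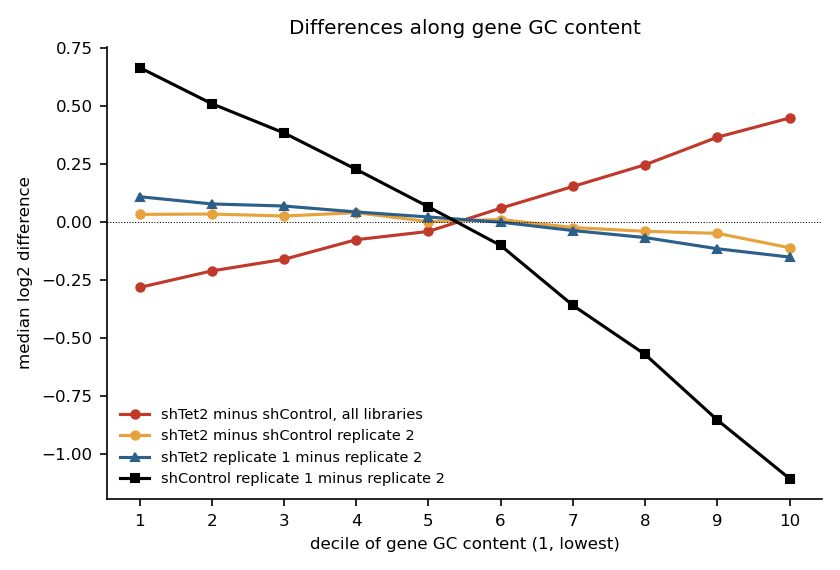
Median log2 difference (y axis) in 10 equal groups of genes ordered by GC content (x axis), for the shTet2 change with all libraries, the same change against shControl replicate 2 alone, and the differences of replicate 1 minus replicate 2 within shTet2 and within shControl. The shTet2 replicates run from 0.11 to -0.15 and the shControl replicates from 0.67 to -1.10.

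Tet2 was lower in both knockdown libraries, and Tet1 was close to absent there. Tet2 (NCBI gene 214133, at 133463677 to 133545136 of chromosome 3 in GRCm38) measured 8.41 and 7.97 CPM in shTet2, against 15.2 and 13.8 CPM in shControl. The groups did not overlap, and the log2 change was -0.76 ± 0.18 (limma adjusted p = 0.0176). Without the library labelled shControl replicate 1 it was -0.64. Tet2 thus fell, with more than a trace of its RNA left in both knockdown libraries. With CI994, Tet2 was 6.297 and 7.42 CPM in shTet2 and 8.13 and 11.4 CPM in shControl, and that difference did not pass (adjusted p = 0.127). Tet1 (NCBI gene 52463, at 62804570 to 62887469 of chromosome 10) measured 0.0472 and 0 CPM in shTet2, a single read in 1 library and none in the other, against 3.94 and 2.25 CPM in shControl. It fell, with a fitted log2 change of -2.77 ± 0.28 (adjusted p = 0.000168), a size that depends on the added 0.5 CPM. With CI994 it was 0.0423 and 0.0894 CPM in shTet2 and 0.721 and 0.905 CPM in shControl. Tet3, at 46.5 and 46.4 CPM in shTet2 and 44.8 and 61.9 CPM in shControl, did not pass with both controls. It passed without the library labelled shControl replicate 1, with a log2 change of -0.32. Tet2 (-0.80) lost the call but not the sign without shTet2 replicate 1. The call, though not the sign, of Tet2 (-0.72) depended on shTet2 replicate 2.

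Among 16 tested genes for TET enzymes and the steps around demethylation, 4 fell and 1 rose, against 6 and 2 without the library labelled shControl replicate 1. Beside Tet1 and Tet2 these were Cxxc5, a CXXC zinc finger protein (-1.61), Idh1, which makes the 2-oxoglutarate that TET enzymes use (-0.77), and the stress-induced Gadd45b (1.04, all log2 changes). Idh1 measured 174 and 197 CPM in shTet2, against 343 and 300.2 CPM in shControl. The base excision glycosylase Tdg did not pass, with 0.31. The maintenance methyltransferase Dnmt1 and the de novo enzymes Dnmt3a and Dnmt3b had log2 changes of 0.17, -0.10 and 0.12, and none passed.

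Over all tested genes, 1338 rose and 1656 fell in shTet2, 10.4% and 12.9% of 12808. Of these, 470 rose and 668 fell 2-fold or more, and 16 rose and 54 fell 8-fold or more. Of the 1338 genes that rose, 1218 also rose without the library labelled shControl replicate 1, and of the 1656 that fell, 1438 also fell. No call changed sign, which groups that did not overlap in any called gene made all but certain. Without that library 16.5% of tested genes rose and 16.5% fell. Counts of the gene lists below are to be read against these shares, with both controls and without that library. A count near its share is no result about the list. The number of calls in either direction was 1522 without shTet2 replicate 1, 1336 without shTet2 replicate 2 and 8133 without shControl replicate 2, so it depended on which library was used. The median log2 change of all tested genes was 0.02 with both controls. In bulk RNA, more cells of one state and more RNA per cell cannot be told apart, which holds for every gene below. In 53.4% of tested genes the 2 groups did not overlap, and every called gene is among them.

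Most genes of the tight junction rose. Of 17 tested, 13 rose and none fell, in a background of 10.4% rising, and all 13 also rose without the library labelled shControl replicate 1. Their median log2 change was 1.20, and 0.99 without that library, against 0.02 for all tested genes. The pore-modulating claudin Cldn4 (NCBI gene 12740, at 134945123 to 134946934 of chromosome 5) measured 57.7 and 71.5 CPM in shTet2, against 4.12 and 13.8 CPM in shControl. Its shControl libraries differed more from each other than its shTet2 libraries did, but lay below both. The log2 change was 3.03 ± 0.40, and 2.27 without the library labelled shControl replicate 1. Cldn7, another claudin, measured 23.1 and 27.8 CPM in shTet2 and 3.02 and 7.19 CPM in shControl. Occludin, Ocln, measured 9.87 and 9.41 CPM in shTet2 and 1.88 and 1.92 CPM in shControl, 2 close pairs with a log2 change of 2.11 ± 0.19. Tricellulin, Marveld2, which seals the corners where 3 cells meet, was at 20.4 and 22.7 CPM in shTet2 and 3.62 and 5.51 CPM in shControl. Of the scaffolds, cingulin, Cgn, rose by 1.20, while Tjp1 stood at 0.01 and did not pass. Cldn3 rose by 2.96 with both controls, a value carried by 0.595 and 10.4 CPM in shControl, and by 1.34 without the library labelled shControl replicate 1. Of these genes, Cldn3 (3.19) did not pass without shTet2 replicate 1. Calls that needed shTet2 replicate 2 were those of Cldn3 (2.73).

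Apical polarity and trafficking genes rose in 9 of 17 tested, with none lower. Rab25, a small GTPase of apical recycling, measured 7.18 and 9.31 CPM in shTet2, against 0.549 and 0.719 CPM in shControl, with a log2 change of 2.98 ± 0.25. Myo5b, the motor that carries recycling vesicles, measured 14.03 and 16.6 CPM in shTet2 and 0.915 and 2.396 CPM in shControl. Lsr, a receptor of tricellular junctions, was at 70.3 and 76.4 CPM in shTet2 and 4.62 and 18.7 CPM in shControl. Its log2 change was 2.93, and 2.03 without the library labelled shControl replicate 1. Crb3, a Crumbs polarity protein, was low in both groups, at 2.93 and 5.33 CPM in shTet2 and 0.0458 and 0.431 CPM in shControl. The atypical kinase C Prkci did not pass (0.10) but passed without the library labelled shControl replicate 1 (0.35). Desmosome genes rose in 5 of 9, and 4 of the 5 also rose without the library labelled shControl replicate 1. The plaque protein Dsp measured 211 and 213 CPM in shTet2 and 59.2 and 76.95 CPM in shControl. Pkp3, with 9.43 and 38.7 CPM in shControl, was the member whose call was lost, at a log2 change of 0.67 and an adjusted p of 0.0816. Without shTet2 replicate 1, Pkp3 (1.82) kept the sign and lost the call. No call was made without shTet2 replicate 2 for Pkp3 (1.37).

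Among membrane serine proteases and their inhibitors, 9 of 10 tested members rose and 1 fell. The membrane protease Prss8 measured 17.7 and 18.5 CPM in shTet2 and 1.83 and 7.52 CPM in shControl, a log2 change of 2.14, or 1.30 without the library labelled shControl replicate 1. The inhibitor Spint1 measured 46.99 and 51.4 CPM in shTet2 and 12.9 and 21.99 CPM in shControl. Maspin, Serpinb5, was at 61.9 and 59.3 CPM in shTet2, against 17.3 and 13.2 CPM in shControl. Klk10, a kallikrein, was at 37.6 and 40.9 CPM in shTet2 and 9.38 and 10.8 CPM in shControl. The inhibitor Slpi was the member that fell, by 0.66 on the log2 scale. Prss22 had 4.53 and 30.6 CPM in shControl, and its log2 change was 1.98 with both controls and 0.73 without the library labelled shControl replicate 1. Prss22 (2.03) and Slpi (-0.68) lost the call but not the sign without shTet2 replicate 1. The call, though not the sign, of Prss22 (1.94) and Slpi (-0.63) depended on shTet2 replicate 2. Of these genes, Slpi (-0.38) did not pass without shControl replicate 2.

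Regulators of the epithelial state rose in 7 of 15 tested, with none lower. Grhl2, a transcription factor of epithelial junction genes, measured 50.7 and 54.9 CPM in shTet2, against 18.1 and 18.02 CPM in shControl, with a log2 change of 1.55 ± 0.11. The splicing regulator Esrp2 measured 12.7 and 12.2 CPM in shTet2 and 0.641 and 2.11 CPM in shControl. Ovol1, a repressor of mesenchymal genes, was at 2.12 and 2.04 CPM in shTet2 and 0.137 and 0.192 CPM in shControl, and its relative Ovol2, at 0.519 and 1.395 CPM in shTet2 and 0.137 and 0.431 CPM in shControl, did not pass. Elf3, an epithelial ETS factor, rose by 1.19, or 0.75 without the library labelled shControl replicate 1. Joined with cell adhesion, tight junctions, desmosomes, polarity and the proteases, these 6 lists hold 81 tested genes, of which 49 rose and 2 fell. Of the 49, 48 also rose without the library labelled shControl replicate 1, and 40 rose in the CI994 libraries too. The 2 that fell were Slpi and Cd24a, a glycoprotein at 309 and 318 CPM in shTet2 and 957 and 641 CPM in shControl. The keratin Krt18 measured 1786 and 2032 CPM in shTet2 and 581 and 1373 CPM in shControl, and its rise of 1.12 became 0.56 without the library labelled shControl replicate 1. Calls that needed shTet2 replicate 1 were those of Krt18 (1.21). Without shTet2 replicate 2, Elf3 (1.17) and Krt18 (1.03) kept the sign and lost the call.

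**Figure D2:**
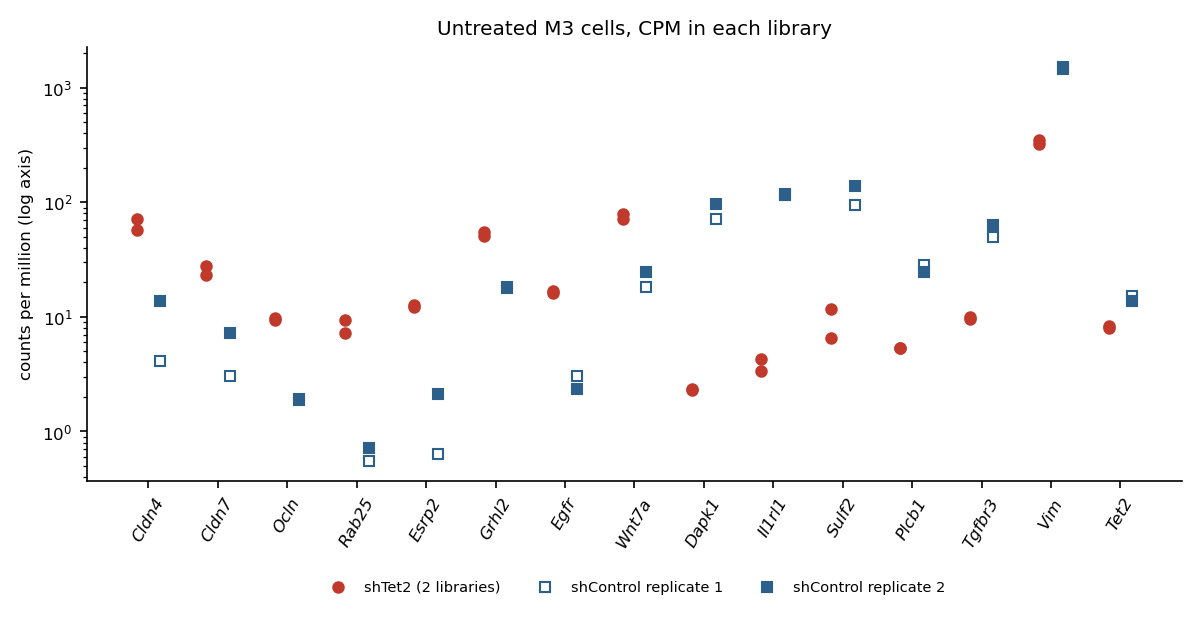
CPM (y axis, log scale) in each untreated M3 library for 15 genes (x axis), shTet2 left of shControl. Cldn4 and Esrp2 have the widest shControl pairs.

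The promoters of Lsr, Crb3, Rab25 and the kinase gene Mapk13 are shown because E-boxes of the form CACCTG or CAGGTG are the letters that Zeb and Snail proteins are known to bind in epithelial genes. The sequences are the 250 bases before the start that the GRCm38.p6 table of RefSeq promoters uses, its first entry for each gene, 5′ to 3′ on the gene's strand, with each CACCTG or CAGGTG in capitals. The letters CACCTG and CAGGTG are the same site read on opposite strands, and both were searched. Lsr lies at chr7:30973470-30973719 on the minus strand, Crb3 at chr17:57061951-57062200 on the plus strand, Rab25 at chr3:88548280-88548529 on the minus strand and Mapk13, a p38 kinase among the 12 largest rises, at chr17:28769067-28769316 on the plus strand. RefSeq lists the gene Mapk13 from 28769286, so the last bases of that sequence lie within the gene as listed, and its last match spans the listed start.
Lsr: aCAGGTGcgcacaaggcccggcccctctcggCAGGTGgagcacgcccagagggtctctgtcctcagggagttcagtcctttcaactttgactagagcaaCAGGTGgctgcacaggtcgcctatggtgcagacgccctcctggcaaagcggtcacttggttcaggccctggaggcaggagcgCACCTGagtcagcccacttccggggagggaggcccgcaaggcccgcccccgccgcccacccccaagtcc
Crb3: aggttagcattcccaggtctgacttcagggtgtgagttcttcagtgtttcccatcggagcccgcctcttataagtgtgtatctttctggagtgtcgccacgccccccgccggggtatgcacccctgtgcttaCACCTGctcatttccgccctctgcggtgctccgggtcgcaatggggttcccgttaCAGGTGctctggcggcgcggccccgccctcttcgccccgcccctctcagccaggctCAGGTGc
Rab25: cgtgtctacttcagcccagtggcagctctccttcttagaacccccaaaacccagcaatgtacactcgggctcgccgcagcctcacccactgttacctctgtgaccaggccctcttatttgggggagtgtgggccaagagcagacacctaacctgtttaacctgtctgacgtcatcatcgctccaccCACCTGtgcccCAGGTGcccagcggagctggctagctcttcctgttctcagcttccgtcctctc
Mapk13: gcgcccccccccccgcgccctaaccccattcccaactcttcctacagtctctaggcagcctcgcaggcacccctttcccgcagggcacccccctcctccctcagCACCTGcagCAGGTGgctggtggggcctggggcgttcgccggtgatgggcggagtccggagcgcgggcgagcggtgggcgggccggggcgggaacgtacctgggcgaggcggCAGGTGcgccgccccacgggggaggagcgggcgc
Lsr holds 4 matches, starting 249, 219, 151 and 69 bases before the start, Crb3 holds 3, Rab25 2 and Mapk13 3. These 4 were chosen for their matches, after the promoters were searched. At least 1 match stood in 17.1% of all 27025 promoters of the table. Entries were found for under 80% of the tested genes, of those that rose and of those that fell, so no share is given for these. A match describes letters only and says nothing on binding in these cells.

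Several transcription factors that drive the mesenchymal state fell, while Snai1 rose. Of 17 tested, 9 fell and 1 rose, in a background of 12.9% falling. All 10 kept their call without the library labelled shControl replicate 1, where 10 fell and 3 rose. Among those that fell, Zeb1 and Tcf4 lie on chromosome 18 and Twist2 on chromosome 1, and this placement does not cover all that fell. Klf8 lies at 135 to 165 Mb of the X chromosome. In these places 28.2%, 36.9% and 58.8% of tested genes fell, above the 12.9% over all. Zeb1 (chromosome 18) measured 18.4 and 17.3 CPM in shTet2 and 57.8 and 52.1 CPM in shControl, 2 pairs far apart, with a log2 change of -1.57 ± 0.13. Twist2 measured 0 and 0.0996 CPM in shTet2 and 1.01 and 1.68 CPM in shControl. Klf8, a Krüppel-like factor on the X chromosome, fell by 1.23, Foxq1 by 0.91 and Tcf4 by 0.78 on the log2 scale. Zeb2 (-0.45), Twist1 (-0.29) and Snai2 (0.67) did not pass, and Snai2 passed without the library labelled shControl replicate 1 (0.88, adjusted p = 0.0429). Whether Zeb1 and Zeb2 differ in their change was not tested. Snai1 rose, at 6.38 and 7.67 CPM in shTet2 and 1.69 and 5.08 CPM in shControl, by 1.13 with both controls and 0.51 without the library labelled shControl replicate 1. No call was made without shTet2 replicate 1 for Foxq1 (-0.54), Snai1 (1.25) and Tcf4 (-0.74). Klf8 (-1.11), Snai1 (1.01) and Tcf4 (-0.83) lost the call but not the sign without shTet2 replicate 2.

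The mesenchymal cytoskeleton and adhesion genes split. Vimentin, Vim (NCBI gene 22352, at 13574311 to 13582826 of chromosome 2), measured 322 and 351 CPM in shTet2 and 1461 and 1525 CPM in shControl. Pdgfrb, a receptor of mesenchymal cells, measured 7.37 and 9.31 CPM in shTet2 and 21.97 and 57.6 CPM in shControl, and S100a4 1640 and 1851 CPM in shTet2 and 2351 and 2793 CPM in shControl. N-cadherin, Cdh2, moved the other way, at 329.5 and 325 CPM in shTet2 and 243 and 248 CPM in shControl, a rise of 0.44 ± 0.10. Over the list, 4 of 10 fell and 2 rose. Among actomyosin and smooth muscle genes 2 of 15 fell, a share close to the 12.9% of all tested genes. They were the myosin kinase Mylk (-1.56) and smooth muscle actin Acta2, which was low at 0.472 and 0.199 CPM in shTet2 and 2.01 and 1.73 CPM in shControl. The call, though not the sign, of Cdh2 (0.43) and S100a4 (-0.44) depended on shTet2 replicate 1. Of these genes, Cdh2 (0.46) and Mylk (-1.44) did not pass without shTet2 replicate 2.

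**Figure D3:**
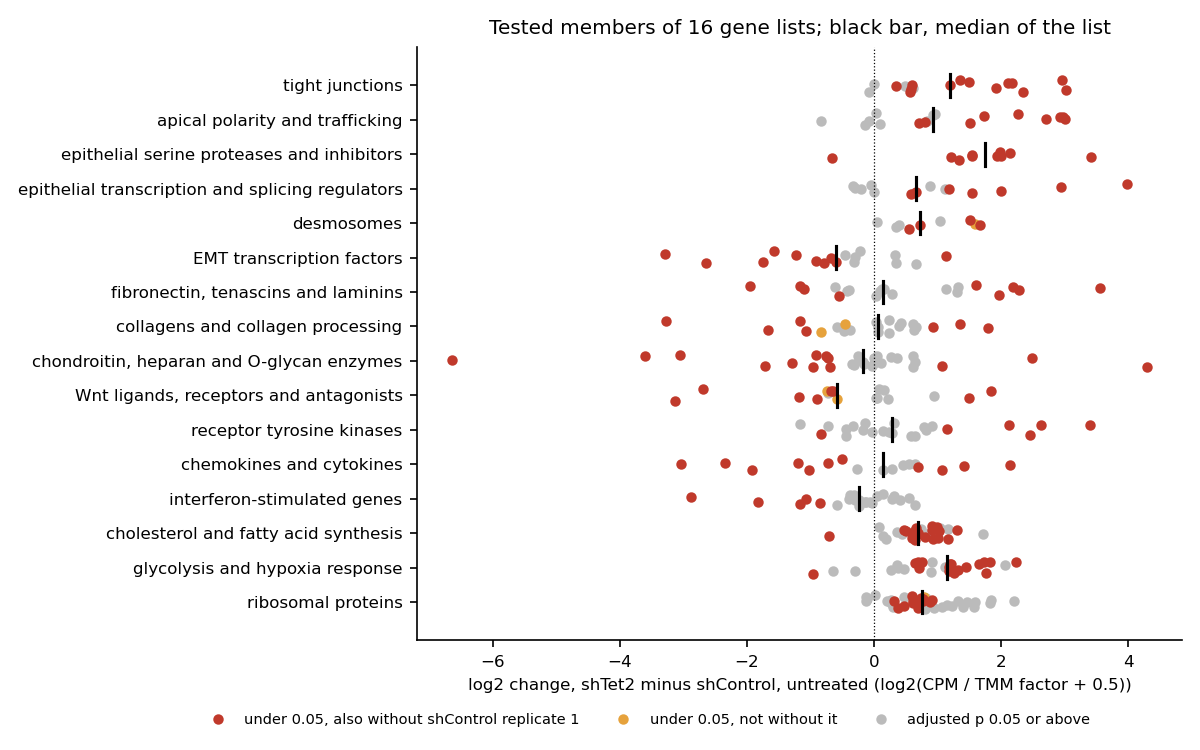
Log2 change (x axis, shTet2 minus shControl on log2(CPM / TMM factor + 0.5)) of each tested member of 16 gene lists (y axis), with the list's median as a black bar and colours for adjusted p with all libraries and without the library labelled shControl replicate 1. Tight junction genes have a median of 1.20, EMT transcription factors of -0.60.

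The 12 largest falls left little of these RNAs in shTet2. They measured 4.41 to 6.64 on the log2 scale, and for genes with 0 to a few reads in shTet2 that size depends on the added 0.5 CPM. All 12 were also called without the library labelled shControl replicate 1, and all 12 fell in the CI994 libraries. Dapk1, a death-associated calmodulin kinase (NCBI gene 69635, at 60601723 to 60763191 of chromosome 13), measured 2.31 and 2.34 CPM in shTet2, against 70.8 and 97.3 CPM in shControl. Il1rl1, the receptor of interleukin 33, measured 3.40 and 4.28 CPM in shTet2, against 119 and 116 CPM in shControl. Pgm5, a phosphoglucomutase-like protein of adhesion sites, had 0.0945 and 0.149 CPM in shTet2, against 26.5 and 31.1 CPM in shControl. Sox5, a SoxD transcription factor, had 0.142 and 0.149 CPM in shTet2 and 19.8 and 17.9 CPM in shControl. The scavenger receptor Scara5 had 0.189 and 0.0498 CPM in shTet2 and 17.4 and 19.4 CPM in shControl. Antxr1, an anthrax toxin receptor that binds collagen, had 0.661 and 0.399 CPM in shTet2 and 33.4 and 26.8 CPM in shControl. St8sia2, which makes polysialic acid, had 0.0945 and 0.149 CPM in shTet2 and 13.96 and 11.3 CPM in shControl. Tafa5, a secreted chemokine-like protein, had no read in either shTet2 library and 11.03 and 15.4 CPM in shControl, at least 90.7-fold lower against a floor of 3 reads in each shTet2 library. Olfm1, a secreted olfactomedin protein, had 0.0945 and 0.0498 CPM in shTet2 and 12.9 and 24.7 CPM in shControl, and Rassf4, a Ras-association protein, had 0 and 0.0498 CPM in shTet2 and 12.7 and 13.1 CPM in shControl. The sulphotransferase Chst11 and the phospholipase Plce1 had the largest falls, -6.64 and -6.28.

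Among the 12 largest rises, from 3.07 to 4.33 on the log2 scale, all were also called without the library labelled shControl replicate 1 and all rose with CI994. The metalloproteinase Adamts5, an aggrecanase, measured 95.3 and 81.98 CPM in shTet2, against 9.56 and 7.04 CPM in shControl. Mapk13 measured 62.5 and 66.7 CPM in shTet2 and 4.62 and 11.5 CPM in shControl, and its log2 change was 3.08, or 2.53 without the library labelled shControl replicate 1. Myh14, a nonmuscle myosin heavy chain, was low in shControl, at 8.93 and 13.3 CPM in shTet2 and 0.183 and 1.97 CPM in shControl. Gvin1, a large interferon-inducible GTPase, at 88.1 and 69.5 CPM in shTet2 and 12.8 and 6.42 CPM in shControl, had values identical to those of the gene model Gm4070, so its level is uncertain, since reads may be shared. Identical values of this kind were found in 63 tested genes.

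In the extracellular matrix, Lama3 and Lamb3, laminin chains of epithelial basement membranes, rose. Lama3 measured 291 and 305 CPM in shTet2 and 80.4 and 74.6 CPM in shControl, and Lamb3 117 and 147 CPM in shTet2 and 17.6 and 46.96 CPM in shControl. Their log2 changes were 1.97 and 2.20. Of 20 fibronectins, tenascins, laminins and related proteins, 5 rose and 4 fell. Those that fell included Lama4, a laminin chain of vessel walls (-1.95), the laminin-binding Nid1 (-1.16) and the secreted phosphoprotein Spp1 (-0.55). Fn1 did not pass with both controls (-0.42) and passed without the library labelled shControl replicate 1 (-0.76). Collagens and their processing enzymes split, with 3 of 22 higher and 6 lower, against 10.4% and 12.9% of all tested genes. Without that library 5 were higher and 7 lower, 4 of the 6 among them. The anchoring collagen Col7a1 rose (1.80, or 1.09 without that library), and the lysyl oxidase Loxl3 fell, at 17.2 and 20.5 CPM in shTet2 and 41.9 and 91.04 CPM in shControl. Calls that needed shTet2 replicate 1 were those of Spp1 (-0.43). Without shTet2 replicate 2, Col7a1 (1.76) and Spp1 (-0.67) kept the sign and lost the call.

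Integrins and proteases changed in both directions. Itga8, at 1.56 and 1.89 CPM in shTet2 and 36.1 and 30.2 CPM in shControl, and Itgb8, at 1.27 and 0.647 CPM in shTet2 and 6.41 and 6.42 CPM in shControl, fell. The epithelial integrin Itgb6 rose, at 2.17 and 1.49 CPM in shTet2 and 0.0915 and 0.2396 CPM in shControl. Of 14 integrins, 2 rose and 4 fell, against 5 and 5 without the library labelled shControl replicate 1. Among 18 metalloproteinases, plasminogen components and inhibitors, 6 rose and 3 fell. For both lists, the shares over all tested genes were 10.4% rising and 12.9% falling. Serpine2, an inhibitor of serine proteases, fell, at 0.189 and 0.0996 CPM in shTet2 and 1.56 and 1.34 CPM in shControl.

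Enzymes that build and sulphate glycan chains fell in 10 of 29 tested and rose in 3. All 10 and all 3 were also called without the library labelled shControl replicate 1, where 15 fell and 5 rose. With CI994, 11 fell and 3 rose. Sulf2, which removes 6-O-sulphate from heparan sulphate (NCBI gene 72043, at 166073899 to 166155683 of chromosome 2), measured 11.8 and 6.58 CPM in shTet2, against 94.6 and 139.5 CPM in shControl. Its log2 change was -3.60 ± 0.33, and -3.47 with CI994. The keratan sulphotransferase Chst1 measured 0.378 and 0.399 CPM in shTet2 and 4.76 and 9.82 CPM in shControl. Hs6st1, a 6-O-sulphotransferase of heparan sulphate, fell by 1.29, and the chondroitin enzymes Chst3, Chsy1 and Csgalnact1 fell by 0.91, 0.69 and 0.75 on the log2 scale. St6gal1, which adds terminal sialic acid, measured 26.2 and 24.9 CPM in shTet2 and 84.6 and 88.6 CPM in shControl. Galnt3, which starts mucin-type O-glycans, was among those that rose, at 51.7 and 48.1 CPM in shTet2 and 11.1 and 6.76 CPM in shControl. The list was written with the changes of Chst11 and B4galnt3 already known. No call was made without shTet2 replicate 2 for Chst3 (-0.74).

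Among 18 ligands and receptors of the TGF-beta and activin family, 4 rose and 3 fell, against 5 and 5 without the library labelled shControl replicate 1. Of all tested genes 10.4% rose and 12.9% fell, or 16.5% each way without that library. The activin subunit Inhba measured 33.5 and 26.9 CPM in shTet2 and 8.24 and 9.73 CPM in shControl, and follistatin, Fst, which binds activin, 32.6 and 31.98 CPM in shTet2 and 11.9 and 7.86 CPM in shControl. The co-receptor Tgfbr3 fell, at 10.01 and 9.66 CPM in shTet2 and 49.3 and 63.3 CPM in shControl. The ligand Tgfb1 and the receptor Tgfbr1 did not pass (-0.08 and -0.34), and Tgfbr2 rose by 0.38, or 0.25 without shControl replicate 2. Among 20 Smads and TGF-beta targets, 6 fell and 3 rose, with the target Tgfbi at 0.0945 and 0.249 CPM in shTet2 and 2.01 and 3.498 CPM in shControl, and the transducers Smad2 (-0.63, or -0.41 without the library labelled shControl replicate 1) and Smad5 (-0.82) lower. Ccn2, also a target of the coactivator Yap, rose, at 149 and 150.1 CPM in shTet2 and 54.5 and 46.6 CPM in shControl. The BMP antagonist Grem1 fell, at 2.597 and 4.88 CPM in shTet2, against 48.9 and 72.8 CPM in shControl, and the ligand Bmp7 fell, at 5.195 and 4.58 CPM in shTet2 and 9.61 and 17.6 CPM in shControl. Smad2 (-0.65) and Tgfbr2 (0.35) lost the call but not the sign without shTet2 replicate 1. The call, though not the sign, of Smad2 (-0.61) and Tgfbr2 (0.41) depended on shTet2 replicate 2.

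Wnt ligands, receptors and antagonists changed in both directions. Wnt7a rose, at 71.97 and 79.5 CPM in shTet2 and 18.2 and 24.9 CPM in shControl, and Wnt7b rose, at 331 and 325 CPM in shTet2 and 78.4 and 178 CPM in shControl. The log2 change of Wnt7b was 1.495, or 0.97 without the library labelled shControl replicate 1. The receptor Fzd7 fell, at 4.63 and 2.94 CPM in shTet2 and 30.1 and 24.2 CPM in shControl, and the secreted antagonist Sfrp1 fell, at 2.83 and 2.09 CPM in shTet2 and 30.5 and 21.5 CPM in shControl. Over 17 tested members 2 rose and 8 fell, 6 of the 8 also without the library labelled shControl replicate 1. Receptor tyrosine kinases rose in 5 of 23 and fell in 1, or in 3 without that library. Egfr measured 16.7 and 16.2 CPM in shTet2, against 3.02 and 2.35 CPM in shControl, and its partner Erbb3 22.7 and 22.01 CPM in shTet2 and 4.07 and 5.75 CPM in shControl. Ret measured 16.2 and 13.4 CPM in shTet2 and 2.24 and 1.82 CPM in shControl. Ligands of these ErbB receptors differed: Tgfa (0.84) and Nrg1 (0.89) rose, and Btc, at 1.09 and 0.797 CPM in shTet2 and 9.11 and 6.28 CPM in shControl, fell.

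Among chemokines and cytokines 4 of 17 rose and 7 fell. The monocyte attractant Ccl2 measured 1.98 and 1.096 CPM in shTet2 and 19.3 and 13.3 CPM in shControl, and its relative Ccl7 0.189 and 0.149 CPM in shTet2 and 2.47 and 1.63 CPM in shControl. Cxcl16 rose, at 23.5 and 22.01 CPM in shTet2 and 4.21 and 5.65 CPM in shControl. Interferon-stimulated genes fell in 5 of 23 and rose in none, with a median log2 change of -0.23. The falls numbered 9 without the library labelled shControl replicate 1, with a median of -0.31. With CI994, 3 rose and 2 fell, with a median of 0.24. Rtp4 measured 0.331 and 0.448 CPM in shTet2 and 5.77 and 6.33 CPM in shControl. Class I presentation genes rose in 4 of 15 and fell in 2, or in 4 and 7 without the library labelled shControl replicate 1, with a median log2 change of -0.22, or -0.47 without that library. H2-D1 measured 123 and 127 CPM in shTet2 and 39.9 and 68.04 CPM in shControl, a level that is uncertain where reads of the similar H2-K1 were shared. The peptide trimmer Erap1 fell, at 59.6 and 57.7 CPM in shTet2 and 159 and 105 CPM in shControl.

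Phospholipases, RAS and small GTPase regulators rose in 6 of 26 and fell in 4, or in 8 and 8 without the library labelled shControl replicate 1. Of all tested genes 10.4% rose and 12.9% fell, or 16.5% each way without that library. The 4 falls are near their share. Plcb1, a phospholipase C that cleaves the same lipid as Plce1, measured 5.34 and 5.33 CPM in shTet2 and 28.6 and 24.4 CPM in shControl. Tiam1, an activator of Rac, measured 13.7 and 12.4 CPM in shTet2 and 36.4 and 42.4 CPM in shControl. Arhgap29, a GTPase-activating protein, rose, at 35.2 and 27.0 CPM in shTet2 and 11.03 and 6.08 CPM in shControl.

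Genes of glycolysis and the hypoxia response rose in 17 of 28 and fell in 1. All 17 also rose without the library labelled shControl replicate 1, though the median log2 change was 1.15 with both controls and 0.60 without it. Pgk1, phosphoglycerate kinase, on the X chromosome, measured 1282 and 1275 CPM in shTet2, against 584 and 569.8 CPM in shControl, with a log2 change of 1.18 ± 0.09. Here the shControl libraries lay close together. For Aldoa and the glucose transporter Slc2a1 they did not. Aldoa measured 1150 and 1283 CPM in shTet2 and 264 and 778 CPM in shControl, and Slc2a1 173 and 199 CPM in shTet2 and 44.99 and 138 CPM in shControl. Their log2 changes of 1.45 and 1.26 became 0.73 and 0.51 without the library labelled shControl replicate 1. Sterol and fatty acid synthesis genes rose in 17 of 29 and fell in 1. All 17 also rose without that library, with medians of 0.70 with both controls and 0.48 without it. Msmo1 and Cyp51, demethylation steps of cholesterol synthesis, measured 322 and 352 CPM and 308 and 359 CPM in shTet2, against 168 and 169.6 CPM and 170.1 and 168 CPM in shControl. Of these genes, Aldoa (1.52) and Slc2a1 (1.36) did not pass without shTet2 replicate 1. Calls that needed shTet2 replicate 2 were those of Aldoa (1.37) and Slc2a1 (1.16).

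Stress genes rose in 15 of 26, and 10 of these also without the library labelled shControl replicate 1. Ddit4, an inhibitor of mTORC1, measured 156 and 161 CPM in shTet2 and 29.8 and 52.7 CPM in shControl. Chac1, a target of Atf4, rose by 1.27 with both controls and 0.87 without that library. Ribosomal protein genes were higher in 35 of 38 by sign, and 15 rose. Their median log2 change was 0.76 with both controls and 0.38 without the library labelled shControl replicate 1, and with CI994 none rose. Copies of these genes can share reads, so their levels are uncertain. In the cell cycle list 5 of 37 fell and 3 rose, shares close to the 12.9% and 10.4% of all tested genes, so the counts are no result about the list. Top2a measured 1083 and 949 CPM in shTet2 and 2419 and 1706 CPM in shControl, the helicase subunit Mcm6 322 and 327 CPM in shTet2 and 558 and 539 CPM in shControl, and the inhibitor Cdkn1b 85.2 and 106 CPM in shTet2 and 50.7 and 59.7 CPM in shControl. The inhibitor Cdkn1a rose by 0.63 ± 0.12. Without shTet2 replicate 1, Cdkn1a (0.49), Cdkn1b (0.96) and Chac1 (1.23) kept the sign and lost the call. No call was made without shTet2 replicate 2 for Cdkn1b (0.66) and Top2a (-0.87).

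Genes often silenced by DNA methylation were mostly too low to test. Of 20 germline genes 4 were tested and 1 fell, of 25 neuronal genes 5 were tested and 1 rose, and of 27 imprinted genes 8 were tested and 2 rose. The imprinted Igf2r, which clears Igf2, measured 248 and 228 CPM in shTet2 and 122 and 139.7 CPM in shControl. Hox genes fell in 2 of 16, a share close to the 12.9% of all tested genes, and in 4 without the library labelled shControl replicate 1. Among them Hoxa10 was at 3.16 and 4.33 CPM in shTet2 and 9.79 and 12.8 CPM in shControl. Polycomb and histone methylation genes fell in 6 of 24 and rose in none, with 7 lower and 1 higher without the library labelled shControl replicate 1. Among them were Cbx2, a reader of trimethylated H3 lysine 27 (-1.17), the ubiquitin ligase Rnf2 (-0.90) and the X-linked demethylase Kdm6a (-0.87, or -0.53 without the library labelled shControl replicate 1), while the methyltransferase Ezh2 did not pass (-0.40). Of 20 NuRD subunits and deacetylases, Hdac9 fell, at 0.142 and 0.149 CPM in shTet2 and 2.70 and 1.97 CPM in shControl, and Hdac7 and Hdac10 rose, the rise of Hdac10 not without the library labelled shControl replicate 1 (0.37), where 1 of the 20 rose and 2 fell. The counts of this list are near or below the 10.4% and 12.9% of all tested genes and are no result about it. Hdac1 and Hdac3, which CI994 inhibits, had log2 changes of 0.10 and -0.19 and did not pass. Of 7 precursors of the miR-200, miR-203 and miR-205 family in the table, none reached the level needed for a test. Hdac10 (0.91) and Kdm6a (-0.84) lost the call but not the sign without shTet2 replicate 1. The call, though not the sign, of Hdac10 (0.79) and Kdm6a (-0.90) depended on shTet2 replicate 2.

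Haematopoietic and endothelial markers were sparse, and fibroblast markers were less so. Of 16 haematopoietic markers, 8 were at 0 in all 4 libraries, and their summed level was 27.2 and 29.8 CPM in shTet2, against 24.9 and 46.2 CPM in shControl. Cd68 alone rose with both controls (0.80) and did not pass without the library labelled shControl replicate 1 (0.48). Of 12 endothelial markers, 5 were at 0 in all 4 libraries, with sums of 1.09 and 1.44 CPM in shTet2 and 0.686 and 1.49 CPM in shControl. The 14 fibroblast markers summed to 198.6 and 190.04 CPM in shTet2 and 101.5 and 194.7 CPM in shControl, with 2 higher and 3 lower. Of 19 luminal markers 7 were tested, and 3 rose, against 10.4% of all tested genes. Their median log2 change was 0.66, or 0.56 without the library labelled shControl replicate 1, and 0.096 with CI994. The milk protein Csn3 measured 22.1 and 18.7 CPM in shTet2 and 7.64 and 6.56 CPM in shControl. Of 14 basal and myoepithelial markers 8 were tested, of which 2 rose and 2 fell, with a median of 0.35. Of these genes, Cd68 (0.71) did not pass without shTet2 replicate 1. Calls that needed shTet2 replicate 2 were those of Cd68 (0.89).

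The same knockdown in CI994-treated cells gave a separate set of 4 libraries. There, 856 genes rose (6.68% of tested genes) and 1183 fell (9.24%), 15.9% in either direction. Of the 1338 genes that rose without CI994, 551 also rose with it, which is 41.2% of the untreated and 64.4% of the CI994 list, and 1252 had the same sign. Of the 1656 that fell, 835 also fell, 50.4% and 70.6% of the lists, and 1546 had the same sign. Only 5 and 7 genes were called in opposite directions. Both lists come from 1 fit with a shared estimate of spread for each gene, so their overlap is not that of separate tests. Across tested genes the log2 changes with and without CI994 correlated at Pearson r = 0.77, and 0.74 without the library labelled shControl replicate 1, a description over genes that are not independent and share libraries within each axis. The difference between the effects was tested as an interaction, and 88 genes (0.687%) passed, with 1482 at an unadjusted p under 0.05. That number was 815 without the library labelled shControl replicate 1, 4900 without shControl replicate 2 and 0 to 12 with any other of the 8 libraries left out. With CI994 the calls in either direction numbered 1004 to 1025 with any 1 of the 4 treated libraries left out, and 5180 and 5189 with 1 of the untreated shControl libraries left out, which enter through the shared estimate of spread.

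With CI994, tight junction genes rose in 10 of 17, with a median log2 change of 1.16. Cldn4 measured 138 and 162 CPM in shTet2 with CI994, against 27.6 and 34.5 CPM in shControl with CI994. EMT transcription factors fell in 7 of 17 there, Zeb1 at 15.8 and 14.7 CPM in shTet2 with CI994 and 50.9 and 54.4 CPM in shControl with CI994. With CI994, 1 of 28 glycolysis and hypoxia genes rose and 2 fell, with a median of 0.06. Pgk1 measured 863 and 841 CPM in shTet2 with CI994 and 741 and 716 CPM in shControl with CI994, and its interaction passed (-0.96 ± 0.13, limma adjusted p = 0.021). The interaction passed for 3 of the 28, Pfkp, Pgk1 and Pdk1, and was below 0 in 27. These counts rest on both untreated controls. The untreated median of 1.15 was 0.60 without the library labelled shControl replicate 1, and the signs were not counted without it. Of the laminin chains, Lama3 measured 207 and 189 CPM in shTet2 with CI994 and 242 and 164 CPM in shControl with CI994, and Lamb3 167 and 158 CPM in shTet2 with CI994 and 167 and 154 CPM in shControl with CI994. The interaction passed for Lama3 (-1.98) and not for Lamb3 (adjusted p = 0.0765).

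**Figure D4:**
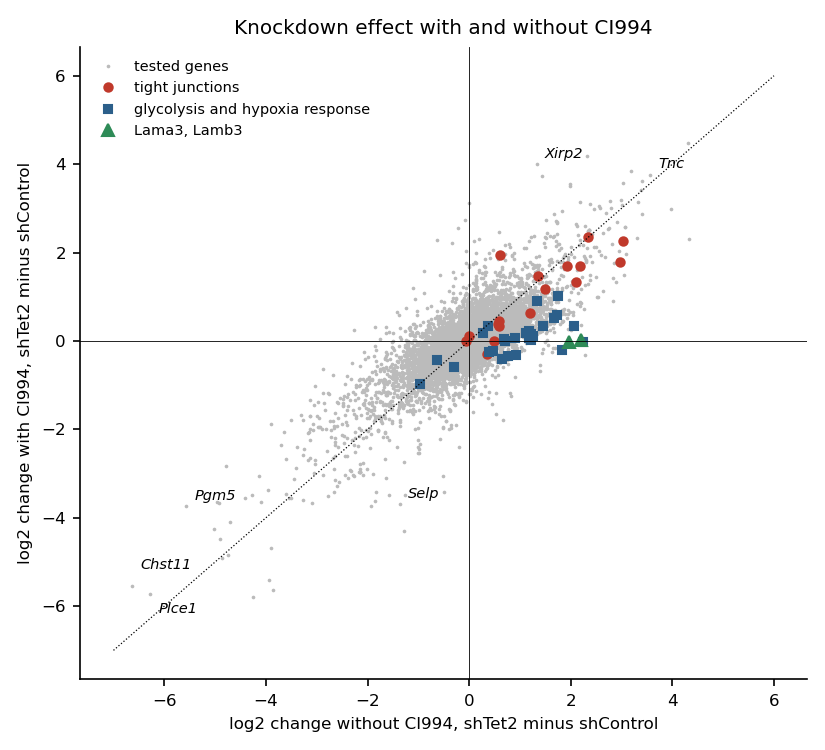
Log2 change (shTet2 minus shControl) of each tested gene without CI994 (x axis) and with CI994 (y axis), with tight junction genes, glycolysis and hypoxia genes and the laminin chains Lama3 and Lamb3 marked and a dotted line of equal change. Tight junction genes have medians of 1.20 and 1.16, glycolysis and hypoxia genes of 1.15 and 0.06. Without the library labelled shControl replicate 1 the untreated medians are 0.99 and 0.60.

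The shMbd3 libraries share the shControl libraries, so no overlap of calls was counted. St8sia2 measured 0.0945 and 0.149 CPM in shTet2 and 50.5 and 47.6 CPM in shMbd3, against 13.96 and 11.3 CPM in shControl. Car9, an anhydrase induced in hypoxia, measured 50.1 and 49.96 CPM in shTet2 and 5.55 and 11.7 CPM in shMbd3, against 7.87 and 13.8 CPM in shControl. These 2 were chosen after their values were seen.

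Genes that fell were spread unevenly over the chromosomes, a pattern looked for after the values were seen. Chromosome 1 held 758 tested genes, of which 280 (36.9%) fell and 35 (4.62%) rose, against 11.4% and 10.8% of 12018 tested genes placed elsewhere. Its median log2 change was -0.38, and -0.31 without the library labelled shControl replicate 1 and -0.42 with CI994. Relative to the mean of the 8 libraries without shTet2, the median of its genes was -0.23 and -0.26 in shTet2 and -0.33 and -0.38 in shTet2 with CI994, against 0.27 and 0.09 in shControl and 0.09 and 0.05 in shControl with CI994. The 4 shMbd3 libraries lay between, at -0.18 to -0.07. All 4 shTet2 libraries were thus lower on chromosome 1 than the other 8. In 15 Mb bins with 20 or more tested genes, 8 of 170 had a median shift of 0.35 or more in the same direction without the library labelled shControl replicate 1 and with CI994. All 8 were downward, 6 of them on chromosome 1 and 2 at 135 to 165 Mb of the X chromosome. That stretch of the X chromosome held 114 tested genes, of which 67 (58.8%) fell and 1 rose, with a median of -0.80, and -0.69 without the library labelled shControl replicate 1 and -0.66 with CI994. Chromosome 18 followed with 105 of 372 genes lower (28.2%) and a median of -0.29, or -0.21 without that library. On chromosome 13, 102 of 485 genes were lower (21.0%), with a median of -0.24, or -0.10 without that library. On chromosome 11, 178 of 1057 were lower (16.8%), with medians of -0.08, -0.20 without that library and -0.20 with CI994. Relative to the same mean of 8 libraries, chromosome 11 stood at -0.26 and -0.24 in shTet2 and -0.28 and -0.05 in shControl. Below 135 Mb the X chromosome had a median of 0.02, and 0.13 without that library.

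Several of the named genes lie on chromosome 1, among them Il1rl1, Fzd7, Idh1, Twist2, Rnf2 and Mcm6, which fell, and Lamb3, Elf3 and Serpinb5, which rose. Others lie on chromosome 18, among them Zeb1, Tcf4, Smad2, Cxxc5 and Pdgfrb, which fell, and Lama3, Myo5b and Cdh2, which rose. Whether their position has a part in their values was not tested. Outside chromosome 1, 1302 genes rose and 1370 fell. Xist, the RNA that coats the inactive X chromosome (NCBI gene 213742, at 103460373 to 103483233 of the X chromosome), measured 109 and 65.2 CPM in shTet2, against 1536 and 1162 CPM in shControl. Its log2 change was -3.95 ± 0.24, and with CI994 it measured 85.3 and 75.8 CPM in shTet2 and 813 and 856 CPM in shControl. In both settings the shTet2 libraries were far below, and the shMbd3 libraries were at 469 and 514 CPM. Its antisense partner Tsix was listed at 0 in these libraries, and the use of strand in counting is not given in the sources used here. Xist was chosen after its values were seen. Kdm5c, a demethylase within the stretch from 135 to 165 Mb, where Klf8 also lies, fell, at 77.7 and 72.2 CPM in shTet2 and 111 and 143 CPM in shControl.

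**Figure D5:**
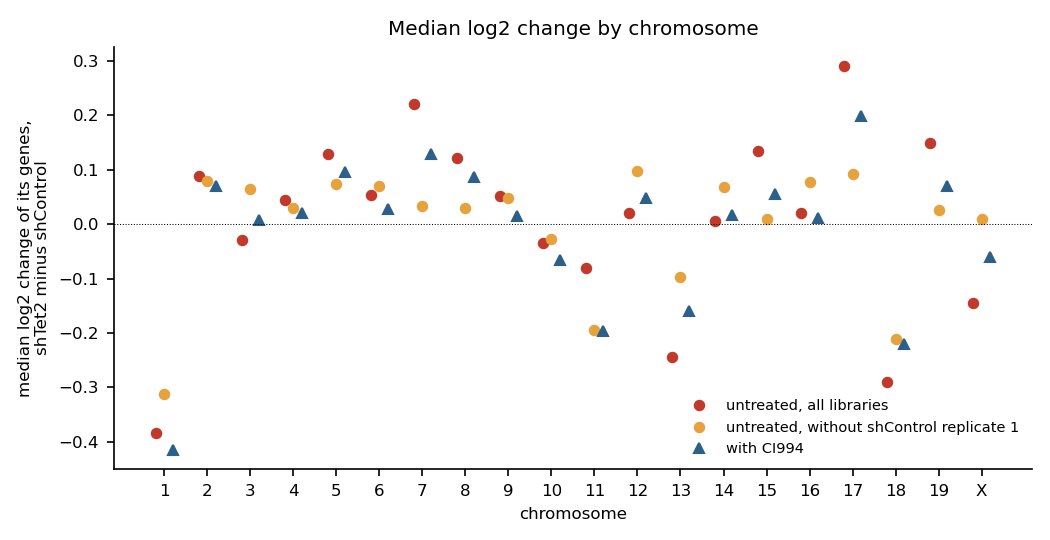
Median log2 change (y axis, shTet2 minus shControl) of the tested genes of each chromosome (x axis), untreated with all libraries, untreated without the library labelled shControl replicate 1, and with CI994. Chromosome 1 is lowest in all 3, at -0.38, -0.31 and -0.42.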

How the data were processed

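RNA of untreated M3 cells with shTet2 or shControl was prepared with a stranded total RNA kit, per the labels' protocols. Reads were aligned with STAR to mm10, per the submitters' processing notes. Versions, the counter and its strand setting are not given in the sources used here. The authors deposited CPM, counts scaled to the library total, for 12 M3 shRNA libraries, and reads recovered from them were whole within 0.01 reads in 100% of values. RefSeq symbols were matched for 24374 of 24454 genes (99.7%), and GC content was known for 95.6% of tested genes.

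Genes with 0.5 CPM or more in 2 or more of the 12 libraries were tested with limma 3.58.1 in R 4.3.3, with TMM factors from edgeR 4.0.16, a pseudocount of 0.5, a trended and robust variance prior, group as the single term and Benjamini-Hochberg adjustment at 0.05. Alternatives used other scalings, filters and pseudocounts, a GC correction, edgeR's quasi-likelihood test and DESeq2 1.42.0 on recovered reads, a replicate block and each library left out. edgeR without the library labelled shControl replicate 1 and counts outside chromosome 1 were chosen after seeing the data. The code was tested on simulated data.

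Named genes were a standing set of EMT, TET and NuRD genes, the 12 largest rises and 12 largest falls that passed with groups apart and 5 CPM or more in the higher group, up to 5 rises and 5 falls per gene list, and the largest interactions. Aldoa, Cgn, Chst3, Chsy1, Csgalnact1, Ezh2, Foxq1, Kdm5c, Pdk1, Pgk1, Prkci, Slc2a1, Tcf4, Tdg, Tjp1 and Xist fall outside that rule and were chosen after their values were seen, as were the printed promoters. Some genes that meet the rule are not reported here. The members and gene lists were chosen with earlier results of these data known. Same-numbered replicates were not taken as pairs.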

Additional observations from a re-analysis of the deposited data

Results flagged for a closer look

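For 9 of the named genes the interaction of Tet2 knockdown and CI994 passed the test of limma over all tested genes. The interaction is the log2 change with CI994 minus that without, with 2 libraries in each of the 4 groups. It was -1.98 for Lama3, -1.27 for the desmosomal Dsp, -0.96 for Pgk1 and -1.10 for Pdk1, all of which rose without CI994. It was 2.51 for Itgb8, 2.03 for Itga8, 1.84 for Pgm5, 1.71 for Rtp4 and 1.97 for Tafa5, all of which fell without CI994. The adjusted p lay between 0.0158 for Dsp and 0.0491 for Pdk1, and all 9 also passed without the library labelled shControl replicate 1. The highest adjusted p under any alternative lay between 0.104 for Dsp and 0.727 for Tafa5. The sign was kept under all 20 alternatives for each of the 9, and the call under 8 (Pdk1) to 14 (Itgb8 and Lama3) of them. Tafa5 was at the floor in shTet2 in both settings, with 0 and 0 CPM without CI994 and 0.0423 and 0 CPM with it. Its interaction is the difference in shControl, 2.84 and 3.57 CPM with CI994 and 11.03 and 15.4 CPM without it, and is no measure of a differing knockdown effect. Pgm5 had 3.001 and 2.06 CPM in shTet2 with CI994, and 0.0945 and 0.149 CPM, at most 3 reads, in shTet2 without it.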

How the results depend on the processing

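The number of calls was not stable. In every called gene the 2 groups did not overlap, so leaving out 1 library or rescaling could hardly turn its sign. None of the 130 named genes that passed changed sign under any alternative tried, and of their 2080 values under alternatives 1930 kept the call. Of 1632 list counts, 1275 stayed within 1.5 times. Fitting only the groups compared, with 4 libraries, or 8 for the interaction, gave 327 calls (114 higher and 213 lower), 5245 with CI994 and 0 interactions, and Tet2 then had a log2 change of -0.75 and did not pass. Removing the GC trend gave 4939 calls (2526 higher), 3723 with CI994 and 508 interactions. The GC trend and the replicate block together gave 5908 calls (3044 higher and 2864 lower), 4682 with CI994 and 1086 interactions. The replicate block alone gave 3908 calls (1850 higher and 2058 lower) and 175 interactions. All 15 correlations between the deviations of same-numbered libraries were positive (0.0958 to 0.524), so these libraries share some deviation. Whether the replicate numbers mark the 2 experiments was not tested, and the main fit leaves the block out. For the interaction, a pseudocount of 0.1 gave 56 calls, edgeR 38 and DESeq2 267. edgeR without the library labelled shControl replicate 1, chosen after seeing the data, gave 2064 higher and 700 interactions. With 1 library left out at a time, calls ranged from 1336 (without shTet2 replicate 2) to 8133 (without shControl replicate 2), those higher from 548 to 4115 and those lower from 788 to 4018. The range was 1004 to 5189 with CI994, 0 to 4900 for the interaction and -0.88 to -0.64 for the log2 change of Tet2, which did not pass without shTet2 replicate 1 or without shTet2 replicate 2. The sign of 6 genes that did not pass also turned. Dnmt1 was -0.0111 with the GC trend removed, with or without the replicate block, -0.13 in edgeR without the library labelled shControl replicate 1, and -0.13 to 0.47 with 1 library left out. Dnmt3b was -0.0212 with the GC trend removed, with or without the block. Prkci ran from -0.15 to 0.35, Tet3 from -0.32 to 0.0212 and Tgfb1 from -0.52 to 0.36 with 1 library left out. Tjp1 was -0.00194 with RLE factors, -0.0233 by library size, -0.0066 in edgeR and -0.0143 in DESeq2, and -0.21 to 0.22 with 1 library left out. Where the construction does not show it, the cause was not tested. With 2 libraries a group, of which 1 control stands apart, the counts are not firm. The kept signs of called genes are no separate evidence of their direction.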
